A study of Mus musculus with 20 samples.

Results

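The genes described here are 10 genes of the endoplasmic reticulum (ER) and integrated stress responses, taken by symbol from the 22048 genes counted in the arcuate nucleus (ARC), a hypothalamic nucleus that controls feeding. They are *Atf6*, *Xbp1*, *Atf4*, *Ddit3*, *Trib3*, *Asns*, *Sesn2*, *Ppp1r15a*, *Herpud1* and *Sdf2l1*. RNA was sequenced from ARC excised by laser capture from male C57BL6/J mice, whose age the labels give as 10 weeks. This is taken here as the age at the start, before treatment, and not as the age at sampling. Mice drank corticosterone (Cort, 75 µg/ml in 1% ethanol) or vehicle (1% ethanol) for 2 days or for 4 weeks, with 5 samples in each of the 4 groups. Mice of the 4 week dataset, vehicle and Cort alike, were fasted for 16 hours and refed for 24 hours at the end while drinking continued, and those of the 2 day dataset were not.

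In each dataset 3 samples were left out, which kept 3 vehicle and 4 Cort samples, and this choice follows the study. Libraries are named here by the number in their column of the count table. The 2 day libraries left out were C07 and C09 of the vehicle group and C08 of the Cort group. In the 4 week dataset C01 and C05 (vehicle) and C06 (Cort) were left out. Sections, slides, laser system and sequencer also differed between the datasets, and age at sampling differed with the length of treatment. Time therefore cannot be told apart from any of these or from refeeding. Neither the labels nor the methods state that every sample is a separate mouse, and p-values measure the spread between these samples only.

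Cells answer a load of misfolded protein in the ER through 3 membrane sensors, PERK (*Eif2ak3*), IRE1 (*Ern1*) and ATF6. PERK, like the amino acid sensor GCN2 (*Eif2ak4*), phosphorylates the initiation factor eIF2, which lowers protein synthesis in general while raising translation of the transcription factor ATF4. IRE1 splices *Xbp1* mRNA and ATF6 is released by cleavage, so that these factors are set largely after transcription and their mRNA level is only part of their regulation. In ARC neurons, ER stress is known for its link to leptin and insulin resistance in obesity.

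Libraries held 2487063 to 5748223 counts at 2 days and 1065776 to 5196364 at 4 weeks, with 13550 to 14333 and 10805 to 13013 genes detected, respectively. No 2 libraries held the same values. Values are given as CPM, the counts of a gene scaled to the size of its library with TMM factors. A gene at or below 3 counts in a library was taken as at the floor, which covers counting error only. This floor was 0.512 to 1.19 CPM in the 2 day libraries and 0.619 to 2.75 CPM in the 4 week ones. Of the 10 genes, 8 to 10 were over the floor in each library at 2 days, and 4 to 9 were at 4 weeks. The markers of the labelled tissue were present, 7 of 8 ARC genes being over the floor in every sample of each 2 day group and 6 or 7 at 4 weeks, whereas the summed level of 4 markers of the neighbouring ventromedial nucleus was at most 49.5 CPM. Summed marker levels of the kept samples did not overlap between groups at 2 days in the ARC and oligodendrocyte lists. The ARC list gave 1834 to 2443 CPM with Cort and 1286 to 1724 CPM with vehicle, and the oligodendrocyte list 472 to 646 against 372 to 460 CPM. The neuron list was lower with Cort but overlapped, at 5544 to 6275 against 6172 to 6729 CPM. With all 10 samples the ARC (1834 to 3203 against 1286 to 2493 CPM) and oligodendrocyte lists (472 to 845 against 372 to 735 CPM) overlapped too. The largest change within the ARC list at 2 days was in *Agrp*, at a fold of 2.5 over the kept samples. At 4 weeks the kept samples did not overlap in the astrocyte list (3124 to 4347 CPM with Cort, 2835 to 2998 with vehicle). Its ranges did overlap with all 10 samples (3124 to 4557 against 1917 to 4061 CPM). The ventromedial list gave 2.06 to 32.6 against 0 to 2.01 CPM, with the kept samples and with all 10. That gap lies within the range of the 4 week floors. The ARC list of the kept samples gave 484 to 977 against 967 to 1410 CPM. The part of these differences in the results below was not tested. In such bulk tissue, fewer cells of a type and less RNA per cell cannot be told apart.

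Of the genes below, 3 carry in their promoter the letters through which ATF4 or the ER stress factors are known to bind. Promoters were the 250 bases before and 50 after the start of transcription in RefSeq (GRCm38.p6), with an entry for 9 of the 10 genes. The letters of the ATF4 site searched on both strands were TGATGNAA, found in 3.97% of 32851 promoters. They stood in those of *Asns*, *Herpud1* and *Trib3*. The ER stress element II was found in 0.0365% of promoters, among them that of *Herpud1*. The ER stress element (0.119% of promoters), the core TGACGTGG bound by XBP1 (0.676%) and the glucocorticoid receptor site (0.271%), all searched on both strands, were in none of the 9. These are descriptions of the letters in this window and not of binding. The stretches that hold the matches are shown 5′ to 3′ on the strand of the gene, since these genes serve below as readouts of the factors, with the matched letters in capitals. In *Herpud1* and *Trib3* the ATF4 letters lie on the opposite strand, and in *Herpud1* the second capital run is the ER stress element II.
Herpud1, chr8:94386309-94386398, + strand, 120 to 31 bases before the start: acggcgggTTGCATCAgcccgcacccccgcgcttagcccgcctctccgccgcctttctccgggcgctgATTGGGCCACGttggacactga
Asns, chr6:7693216-7693245, - strand, 36 to 7 bases before the start: ggtcccagccacaTGATGAAActtcccgca
Trib3, chr2:152344028-152344057, - strand, bases 4 to 33 after the start: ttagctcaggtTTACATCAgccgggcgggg

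None of the genes tested passed the test for a change with Cort at either time, and *Trib3* (both datasets) and *Ppp1r15a* (4 weeks) had too few counts to be tested. At 2 days 9 were tested, of which 2 had a positive and 7 a negative log2 fold change, and 0 passed an adjusted P (Padj; edgeR's quasi-likelihood test with Benjamini-Hochberg adjustment over all genes tested) below 0.1, where 8 of the 12309 genes tested (0.065%) passed. None had an unadjusted P below 0.05 either, beside 5.97% of all genes. At 4 weeks 8 were tested, 5 with a positive and 3 with a negative change, and 0 passed either threshold, beside 0.0446% and 4.91% of the 11211 genes tested. The median log2 fold change of the genes was -0.21 at 2 days and 0.09 at 4 weeks, beside 0.02 and 0.04 over all genes tested. In both datasets vehicle and Cort samples overlapped in every one of the genes other than *Trib3*, with the kept samples and with all 10. *Trib3* was at 0 in 9 of the 10 samples at 2 days and in all 10 at 4 weeks, so its overlap says nothing. Groups of kept samples did not overlap in 6.63% of all genes tested at 2 days and 6.53% at 4 weeks. All 10 samples together did not overlap in 0.804% and 0.919% of all genes. DESeq2 called 0 of the genes as well, and gave 0 an unadjusted P below 0.05, beside 0.325% and 6.18% of all genes at 2 days and 0.449% and 6.54% at 4 weeks. With edgeR on all 10 samples both counts were again 0, beside 0.0167% and 5.28% of all genes at 2 days and 0.00962% and 4.9% at 4 weeks.

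**Figure D1:**
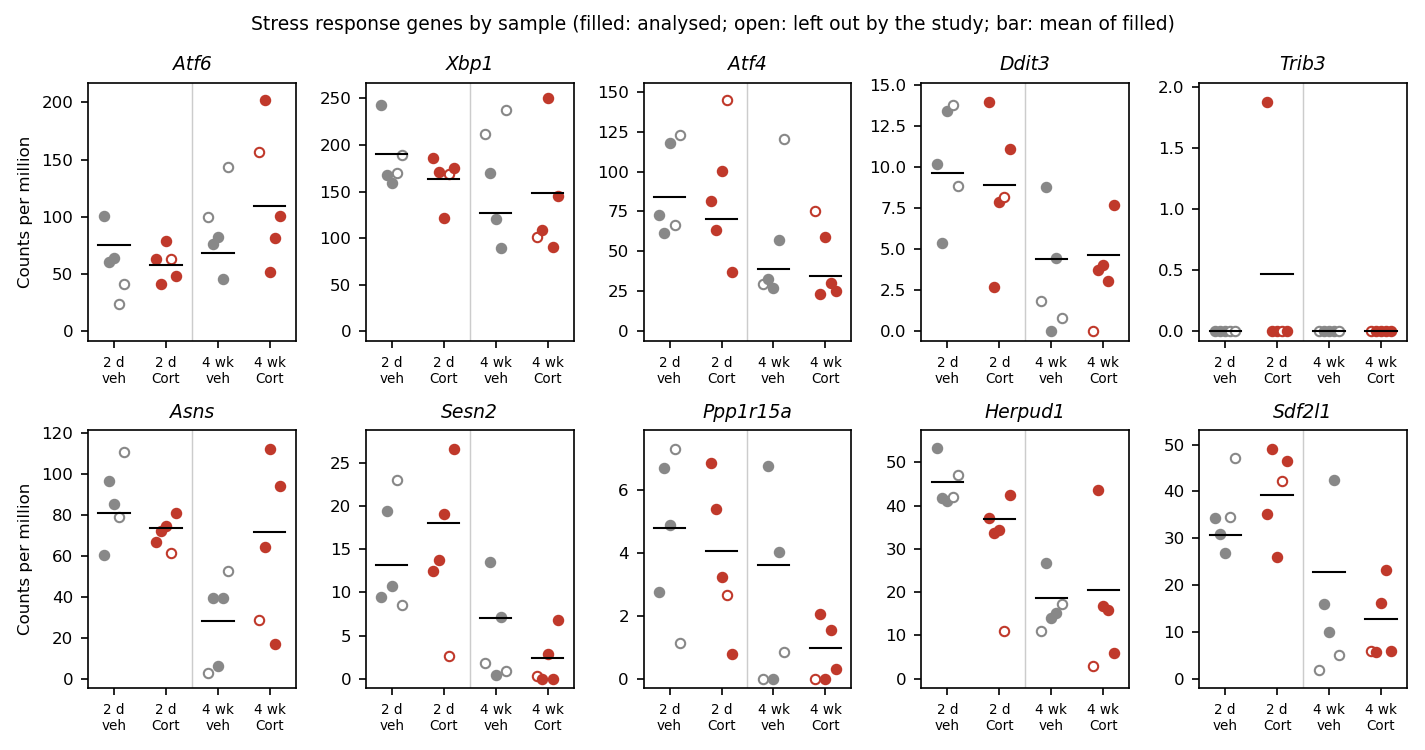
Level of each of the 10 genes (CPM, linear axis) in the 20 samples by group, with kept samples filled, samples left out by the study open, and a bar at the mean of the kept samples. Vehicle (grey) and Cort (red) samples overlap in every panel, which for *Trib3* rests on samples at 0. *Ddit3*, *Sesn2* and *Ppp1r15a* reach 0 in 2 to 4 of the 10 samples at 4 weeks and in none at 2 days.

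A missed threshold does not show that a gene was unchanged, and the intervals set how much change the samples can hold. At 2 days all 9 intervals of the fold change included no change, and 5 of them (*Atf4*, *Atf6*, *Xbp1*, *Asns*, *Herpud1*) lay wholly within a 2-fold rise or fall. At 4 weeks all 8 included no change and none lay wholly within 2-fold. Standard errors on the log2 scale ran from 0.19 to 0.85 at 2 days and from 0.41 to 1.73 at 4 weeks. Their medians, 0.30 and 0.84, stood beside 0.38 and 0.81 over all genes tested, so the wider intervals at 4 weeks were common to the dataset.

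**Figure D2:**
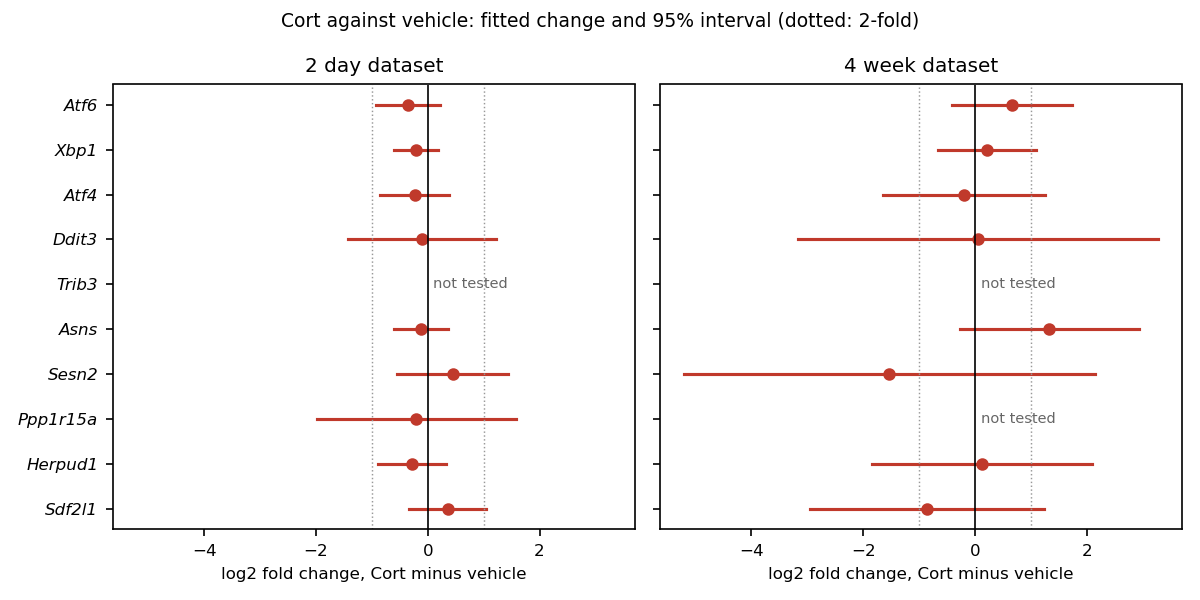
Fitted log2 fold change (Cort minus vehicle) of each gene, with its 95% interval, at 2 days (left) and 4 weeks (right); dotted lines mark a 2-fold change and genes without enough counts are marked as not tested. Every interval crosses 0, and the 4 week intervals are the wider.

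Per length of exon, *Xbp1* had the highest mean level and *Trib3* the lowest. In the 5 vehicle samples at 2 days, CPM per kb of exon averaged 57.2 ± 10.4 for *Xbp1*, 37.5 ± 12.5 for *Atf4*, 31.6 ± 6.94 for *Asns*, 31.4 ± 6.84 for *Sdf2l1* and 19.3 ± 2.21 for *Herpud1* (SD, n = 5). A second tier held *Atf6* (6.30 ± 3.12), *Ddit3* (6.03 ± 2.02), *Sesn2* (4.10 ± 1.89) and *Ppp1r15a* (1.55 ± 0.886), while *Trib3* was at 0. Neighbours in this order overlapped in their ranges except at *Herpud1*, whose samples (17.6 to 22.8) all lay below those of *Sdf2l1* (24.2 to 42.5) and above those of *Atf6* (2.61 to 10.9), and at *Trib3*. At 4 weeks the vehicle order began with *Xbp1* (51.1 ± 18.9) and *Atf4* (22.7 ± 16.7), and *Sdf2l1*, *Asns*, *Atf6* and *Herpud1* followed between 13.6 and 7.22. There the ranges of all neighbours overlapped.

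**Figure D3:**
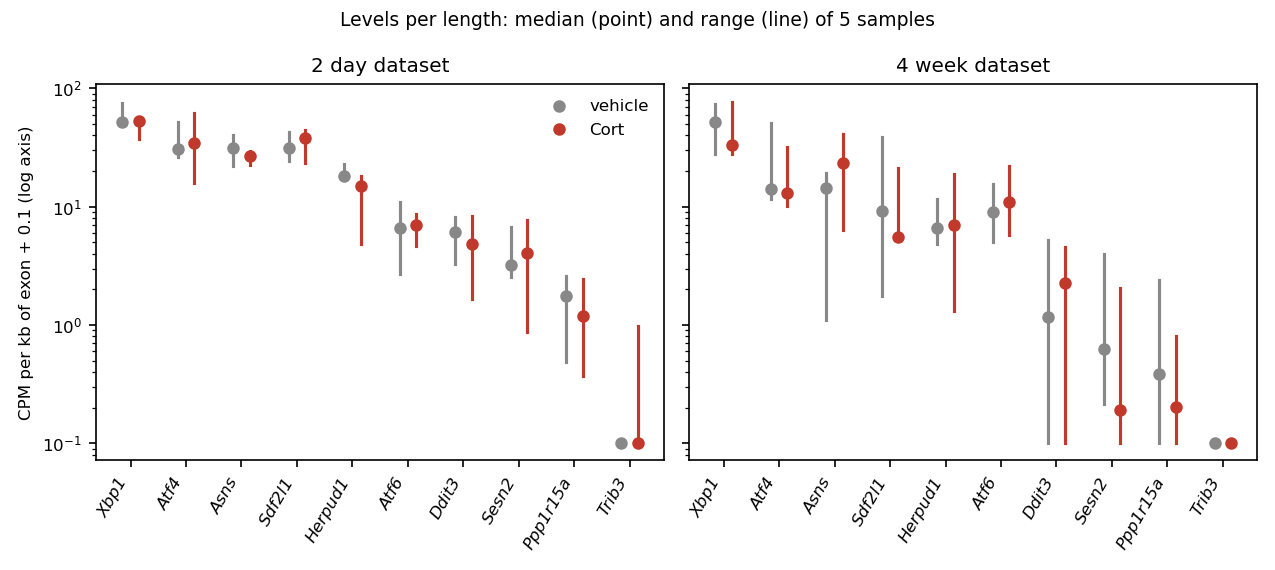
Level per length (CPM per kb of exon, log axis after adding 0.1 so that 0 can be drawn) in the 5 vehicle and 5 Cort samples of each dataset, as the median (point) and the range (line), ordered by the 2 day vehicle mean. The span from lowest to highest sample is wider at 4 weeks for most genes.

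The sensor *Atf6* lies on chromosome 1 (170704674-170867771, minus strand, 16 exons; coordinates here and below are GRCm38, GENCODE M21, and exons are merged over the transcripts of a gene). At 2 days its kept vehicle samples had 101, 60.4 and 64.1 CPM, and its Cort samples 63.5, 41.8, 78.6 and 48.5 CPM. The vehicle samples left out were lower, at 24.1 and 41.4 CPM, and the Cort sample left out had 63.3 CPM. The groups overlapped, with a log2 fold change of -0.35 ± 0.28 (SE; 95% interval -0.93 to 0.22; Padj = 0.924), which turned to 0.04 when all 10 samples were fitted. At 4 weeks vehicle samples had 76.8, 82.8 and 45.7 CPM and Cort samples 202, 52.2, 81.9 and 101 CPM. The highest value was in Cort sample C07, and the left-out samples (100.1 and 144 CPM with vehicle, 157 with Cort) lay in the upper part of the range in both groups. The log2 fold change was 0.66 ± 0.51 (SE; -0.42 to 1.74; Padj = 0.99), and 0.18 without C07.

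*Xbp1*, the transcription factor activated by IRE1, lies on chromosome 11 (5520659-5525893, plus strand, 4 exons). Its counts cover the whole gene and do not separate spliced from unspliced mRNA. At 2 days vehicle samples had 243, 168 and 159 CPM and Cort samples 186, 171, 122 and 175 CPM, while the left-out ones had 170 and 189 CPM (vehicle) and 169 CPM (Cort). One sample stood out on either side, vehicle C02 above and Cort C06 below, and the other 8 lay between 159 and 189 CPM. This was the most precise of the fits, at -0.21 ± 0.19 (SE; log2 fold change, -0.61 to 0.19; Padj = 0.933), and without C02 it was 0.005. In the 4 week dataset vehicle samples had 170, 121 and 89.6 CPM (left out, 212 and 238), and Cort samples 109, 251, 90.2 and 145 CPM (left out, 101). The ranges were nearly the same, with a log2 fold change of 0.22 ± 0.41 (SE; -0.66 to 1.10; Padj = 0.99) that turned to -0.28 with all 10 samples.

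*Atf4*, the effector of the integrated stress response, lies on chromosome 15 (80255184-80257541, plus strand). At 2 days vehicle samples had 72.9, 61.7 and 118 CPM (left out, 66.6 and 123) and Cort samples 81.4, 63.6, 100.2 and 37.0 CPM (left out, 145). Cort samples held both the lowest and the highest value, and the log2 fold change was -0.23 ± 0.30 (SE; -0.86 to 0.39; Padj = 0.95). In the 4 week vehicle samples it had 32.8, 27.3 and 57.3 CPM (left out, 29.4 and 120), and in the Cort samples 23.5, 59.1, 30.4 and 25.2 CPM (left out, 75.2). Between 23.5 and 32.8 CPM lay 6 of the 10 samples, with higher ones in both groups, and the log2 fold change was -0.19 ± 0.68 (SE; -1.64 to 1.26; Padj = 0.995).

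*Ddit3* encodes CHOP, the factor known for promoting cell death in lasting ER stress. It lies on chromosome 10 (127290774-127296288, plus strand, 4 exons). Of its exon bases, 10.9% are shared with other entries, *Mars* and Gm4189 on the opposite strand among them, and where the counting strand is not given their reads cannot be told apart. It was low at 2 days, with 10.2, 5.39 and 13.4 CPM in vehicle samples (left out, 13.8 and 8.84) and 14, 2.69, 7.86 and 11.1 CPM in Cort samples (left out, 8.19). The ranges coincided, with a log2 fold change of -0.10 ± 0.64 (SE; -1.43 to 1.23; Padj = 0.992). At 4 weeks vehicle samples had 8.79, 0 and 4.48 CPM (left out, 1.84 and 0.839) and Cort samples 3.71, 4.05, 3.09 and 7.69 CPM (left out, 0). Of the kept samples vehicle C03 was at 0, and the Cort sample at 0 did not enter the fit. The interval ran from -3.17 to 3.28 around a log2 fold change of 0.06, too wide to show a change of several fold.

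*Trib3*, a pseudokinase induced by ATF4 and CHOP that is known to bind AKT, was barely present. The gene lies on chromosome 2 (152337422-152344032, minus strand, 4 exons). At 2 days 11 counts (1.88 CPM) fell in Cort sample C01 and none in the other 9 libraries, and at 4 weeks all 10 libraries were at 0. It was therefore not tested, and its presence below the floor was not detectable at this depth.

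*Asns*, asparagine synthetase and a classic target of ATF4 on amino acid shortage, had the largest positive fitted change of the 10 at 4 weeks without passing the test. It lies on chromosome 6 (7675169-7693254, minus strand, 13 exons). At 2 days it differed little between samples, with 60.5, 96.8 and 85.4 CPM in vehicle samples (left out, 79.0 and 111) and 66.7, 72.4, 74.7 and 80.7 CPM in Cort samples (left out, 61.4). The log2 fold change was -0.13 ± 0.23 (SE; -0.61 to 0.36; Padj = 0.97). In the 4 week dataset vehicle samples had 39.6, 6.03 and 39.4 CPM (left out, 2.75 and 52.8), and Cort samples had 64.2, 112, 17.0 and 94.1 CPM (left out, 28.6). Of the 5 Cort samples 3 lay above every vehicle sample, while C09 and the left-out C06 lay below the vehicle maximum. The log2 fold change was 1.33 ± 0.76 (SE; -0.28 to 2.94), a fold of 2.52 with an interval of 0.826 to 7.69. Its unadjusted P was above 0.05 (edgeR, Padj = 0.99). With Cort sample C09 left out it was 1.66, with an unadjusted P below 0.05 and an edgeR Padj of 0.984, and without vehicle C03 it was 0.86. An exact permutation test of mean log2 CPM gave p = 0.229 over the kept samples, where the smallest p possible is 0.0571, and p = 0.175 over all 10.

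*Sesn2*, a stress-induced inhibitor of mTORC1 signalling, lies on chromosome 4 (132492032-132510501, minus strand, 10 exons). At 2 days vehicle samples had 9.45, 19.4 and 10.8 CPM (left out, 23.1 and 8.56) and Cort samples 12.5, 13.8, 19.1 and 26.7 CPM (left out, 2.66). The left-out Cort sample was the lowest and a kept one the highest, and the log2 fold change was 0.45 ± 0.48 (SE; -0.55 to 1.44; Padj = 0.946). At 4 weeks vehicle samples had 13.5, 0.402 and 7.17 CPM (left out, 1.84 and 0.839) and Cort samples 0, 2.86, 0 and 6.76 CPM (left out, 0.315). Samples at or near 0 stood in both groups, and the log2 fold change of -1.53 ± 1.73 (SE; -5.21 to 2.15; Padj = 0.99) was the least precise. It ran from -2.08 without vehicle C03 to -0.62 without vehicle C02.

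*Ppp1r15a* encodes GADD34, which restores protein synthesis by directing a phosphatase to eIF2, and lies on chromosome 7 (45522916-45526268, minus strand, 2 exons, with 0.409% of exon bases shared with *Tulp2* on the opposite strand). At 2 days vehicle samples had 2.74, 6.68 and 4.88 CPM (left out, 7.29 and 1.14) and Cort samples 6.83, 5.39, 3.22 and 0.796 CPM (left out, 2.66). The log2 fold change was -0.21 ± 0.85 (SE; -1.99 to 1.57; Padj = 0.984), with the groups overlapping throughout. At 4 weeks it had 6.76, 0 and 4.03 CPM with vehicle (left out, 0 and 0.839) and 2.06, 0, 1.55 and 0.307 CPM with Cort (left out, 0), and did not pass the filter on low counts.

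*Herpud1*, an ER membrane protein of the degradation machinery, came nearest to separated groups at 2 days. It lies on chromosome 8 (94386438-94395377, plus strand, 10 exons). Vehicle samples had 53.2, 41.8 and 41.1 CPM (left out, 42.1 and 47.1) and Cort samples 37.0, 33.7, 34.5 and 42.6 CPM (left out, 11.1). Only Cort sample C10 reached into the vehicle range of 41.1 to 53.2 CPM, and the lowest value was in C08, which the study left out. The fitted log2 fold change was -0.29 ± 0.29 (SE; -0.89 to 0.32; Padj = 0.946). In the exact permutation test the difference in mean log2 CPM was -0.62 with p = 0.0317 over all 10 samples, where the smallest p possible is 0.00794, and -0.29 with p = 0.171 over the kept samples. The first of these p-values was not adjusted for the 10 genes, and without C08 alone the difference was -0.28 with an exact permutation p = 0.0635. The 4 week vehicle samples had 26.7, 14.1 and 15.2 CPM (left out, 11.0 and 17.2) and Cort samples 43.5, 16.9, 16.0 and 5.84 CPM (left out, 2.83). Cort samples spanned the vehicle range on both sides, with a log2 fold change of 0.13 ± 0.93 (SE; -1.85 to 2.10; Padj = 0.995).

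*Sdf2l1* encodes a partner of the ER chaperone BiP and is known as a sensitive ER stress target, on chromosome 16 (17130138-17132383, minus strand, 3 exons). At 2 days vehicle samples had 34.3, 30.8 and 26.8 CPM (left out, 34.6 and 47.1) and Cort samples 35.2, 49.2, 25.9 and 46.5 CPM (left out, 42.2). Although 3 kept Cort samples exceeded all kept vehicle samples, C06 lay below them and the left-out vehicle C09 (47.1 CPM) above 4 of the 5 Cort samples, and the log2 fold change was 0.36 ± 0.33 (SE; -0.33 to 1.05; Padj = 0.933). At 4 weeks vehicle samples had 15.9, 10.1 and 42.5 CPM (left out, 1.84 and 5.03) and Cort samples 5.78, 16.2, 23.2 and 5.84 CPM (left out, 5.98). A single vehicle sample, C04, was the highest, and the log2 fold change moved from -0.85 ± 0.99 (SE; -2.95 to 1.24; Padj = 0.99) to -0.04 without it.

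To ask whether the effect of Cort differed between the datasets, the interaction of time and treatment was fitted over the 14 kept samples. None of the 9 genes tested passed Padj below 0.1 or an unadjusted P below 0.05, beside 0.0157% and 6.49% of the 12777 genes tested. The 4 week change exceeded the 2 day change by 1.46 ± 0.77 for *Asns* (SE; log2 scale, -0.15 to 3.07; Padj = 0.816) and by 1.02 ± 0.59 for *Atf6* (SE; -0.20 to 2.25; Padj = 0.851). The differences for *Sesn2* (-1.99), *Ppp1r15a* (-1.65) and *Sdf2l1* (-1.22) had standard errors of 1.68, 2.01 and 0.91. The other 4 differences lay between 0.06 and 0.43.

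Factors and the genes known as their targets were also compared across the 10 samples of a dataset, in the 14 relations with enough counts. No Pearson correlation passed after adjustment over the 14. The strongest was between *Atf4* and *Sesn2* at 2 days and was negative, with r = -0.765 (permutation p = 0.00991, adjusted p = 0.139) and Spearman's rho = -0.83 (permutation p = 0.00495, adjusted p = 0.0693). Without the 2 samples farthest from the median *Atf4* level, r was -0.532. *Atf4* with *Asns* gave r = -0.016 at 2 days and 0.291 at 4 weeks, with adjusted permutation p-values of 0.965 and 0.941.

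The other genes of the pathway were read from 5 lists of 112 genes in all, the sensors and their regulators, ER chaperones, ER-associated degradation, ATF4 targets and cytosolic tRNA synthetases. The list of ATF4 targets was written with the study's regulator table, drawn from these samples, in view. Its counts below a threshold, its directions and the size of its changes are therefore not independent evidence. At 2 days 100 were tested, 41 with a positive and 59 with a negative change. None passed Padj below 0.1, and 5 (5%) had an unadjusted P below 0.05, close to the 5.97% of all genes. At 4 weeks 95 were tested, 45 positive and 50 negative, with 0 past Padj below 0.1 and 5 (5.26%) with P below 0.05, beside 4.91%. Of the 32 ATF4 targets listed, 18 were tested there. Of these, 4 (22.2%) had P below 0.05, beside 4.91% of all genes. A change beyond 2-fold in either direction was seen in 8 (44.4%), beside 23.9% of all genes. At 2 days 0 of 21 had P below 0.05. The same fits were also read for genes that glucocorticoids are known to induce. At 2 days 10 of 10 such genes had a positive change, with a median of 0.77. Of them 5 (50%) had P below 0.05, beside 5.97% of all genes. At 4 weeks 9 of 10 had a positive change, with a median of 1.23, and *Fkbp5* had -0.22. P was below 0.05 in 3 (30%), beside 4.91% of all genes. In each dataset 1 of the 10 passed Padj below 0.1. *Fkbp5*, *Fam107a* and *Mt2* of this list are also genes the study named from these samples, so its counts are not independent of them.

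The median log2 fold change of the ER chaperones was -0.08 at 2 days over 25 genes tested and -0.04 at 4 weeks over 23. *Hspa5*, which encodes BiP, the chaperone whose rise is the usual sign of ER stress, is named for its role and not by the rule for named genes. At 2 days it had 802, 892 and 880 CPM in kept vehicle samples and 854, 743, 658 and 662 CPM in kept Cort samples (left out, 677 and 642 with vehicle, 738 with Cort). The log2 fold change of -0.23 ± 0.12 (SE; -0.47 to 0.02; Padj = 0.863) did not pass, and was -0.08 with all 10 samples. At 4 weeks it had 514, 596 and 475 CPM with vehicle and 633, 547, 388 and 414 CPM with Cort (left out, 319 and 417 with vehicle, 585 with Cort), the groups overlapping. There its interval over the kept samples, a fold of 0.66 to 1.31, excluded a 2-fold rise, and its log2 fold change was -0.10, and 0.13 with all 10 samples. The median change was -0.10 (2 days) and -0.13 (4 weeks) over 17 genes of ER-associated degradation, and -0.02 and 0.13 over the 20 sensors and regulators. The sensors *Ern1* and *Eif2ak3* are also named for their role. At 2 days *Ern1* had -0.59 ± 0.31 (SE; Padj = 0.865). Its kept groups did not overlap (37.4 to 48.7 CPM with vehicle, 24.6 to 32.0 with Cort), as in 6.63% of all genes, while all 10 samples overlapped. *Eif2ak3* had 0.59 ± 0.73 (SE; Padj = 0.949). At 4 weeks they had 0.16 ± 0.80 and -0.98 ± 1.40 (SE).

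At 2 days the genes with an unadjusted P below 0.05 were *Wars*, *Eif2ak4*, *Wfs1*, *Edem2* and *Os9*. *Eif2ak4*, the amino acid sensor GCN2, had 6.22, 7.33 and 6.91 CPM in kept vehicle samples and 18.6, 15.5, 20.5 and 15.9 CPM in kept Cort samples. These groups did not overlap, although the left-out vehicle sample C07 had 26.7 CPM, above all Cort samples. The log2 fold change was 1.38 ± 0.50 (SE; Padj = 0.687), and 0.59 with all 10 samples. At 4 weeks *Eif2ak4* ranged from 6.76 to 138 CPM with vehicle and from 1.86 to 51.0 CPM with Cort, with a change of -1.34 ± 0.96 (SE; Padj = 0.99) and an interaction Padj of 0.746. *Os9*, a lectin of ER-associated degradation, was at 72.2 to 95.7 CPM with vehicle and 105 to 134 CPM with Cort (0.46 ± 0.20, SE; Padj = 0.803), and the left-out vehicle samples (104 and 118 CPM) overlapped the Cort samples. *Wfs1*, an ER membrane protein lost in Wolfram syndrome, had a log2 fold change of -0.36 ± 0.15 (SE; Padj = 0.782), and *Edem2*, a mannosidase-like degradation factor, had -1.70 ± 0.74 (SE; Padj = 0.803), with overlapping groups in both.

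At 4 weeks the genes with P below 0.05 were *Slc7a11*, *Slc1a4*, *Slc38a2*, *Psph* and *Wars*, of which the first 4 are ATF4 targets in amino acid transport and synthesis. They did not share a direction. *Slc7a11*, the cystine/glutamate exchanger, had 167, 191 and 142 CPM in kept vehicle samples and 43.7, 97.9, 97.9 and 44.6 CPM in kept Cort samples, which did not overlap. Its log2 fold change was -1.24 ± 0.42 (SE; Padj = 0.944), and -1.47 with all 10 samples, where the left-out vehicle sample C05 (67.1 CPM) lay among the Cort samples. *Slc38a2*, a transporter of neutral amino acids, went the other way, with 73.0, 112 and 52.8 CPM with vehicle and 314, 91.4, 144 and 149 CPM with Cort. The change of 1.13 ± 0.46 (SE; Padj = 0.99) was 0.46 with all 10 samples, those left out having 45.0 and 257 CPM (vehicle) and 56.7 CPM (Cort), and 0.68 without Cort C07, at 314 CPM. *Slc1a4*, which exchanges alanine, serine and cysteine, had a log2 fold change of -1.21 ± 0.43 (SE; Padj = 0.99), which was -0.53 without vehicle C02, at 327 CPM. The change of *Slc1a4* was -0.73 with all 10 samples, with an unadjusted edgeR P above 0.05. Its left-out samples had 49.6 and 98.1 CPM (vehicle) and 106 CPM (Cort), the lowest of these lying below all Cort samples. *Psph*, the last enzyme of serine synthesis, had 18.9, 44.2 and 8.96 CPM with vehicle and 0.206, 7.14, 0 and 1.84 CPM with Cort, a change of -3.35 ± 1.40 (SE; Padj = 0.99). Its left-out samples had 13.8 and 0 CPM (vehicle) and 0 CPM (Cort), so that the groups of all 10 overlapped, and the change was then -3.19. It was -5.03 without Cort C08, and -2.57 without vehicle C03, where the unadjusted P was above 0.05. At 2 days none of these 4 had P below 0.05, and their changes lay between -0.23 and 0.44.

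*Wars*, the tryptophanyl-tRNA synthetase, had P below 0.05 and lower values with Cort in both datasets, whose samples are separate. Of the 11016 genes tested in both, 11 (0.0999%) did so, and *Wars* was the only one of the 95 listed genes tested in both. At 2 days it had 290, 75.0 and 96.8 CPM in kept vehicle samples and 82.5, 77.5, 73.2 and 57.3 CPM in kept Cort samples. The change of -1.07 ± 0.32 (SE; Padj = 0.529) rested on vehicle sample C02, at 290 CPM, and was -0.23 without it. At 4 weeks it had 91.0, 65.1 and 44.3 CPM with vehicle and 24.3, 25, 40.2 and 18.8 CPM with Cort, which did not overlap (-1.32 ± 0.61, SE; Padj = 0.99). Of the left-out samples, vehicle C05 (4.19 CPM) and Cort C06 (103 CPM) reversed that order, while vehicle C01 (49.6 CPM) lay above the kept Cort samples. The change with all 10 samples was -0.27. The other 16 tRNA synthetases had P of 0.05 or more in both datasets, and the median over the 17 was -0.13 at 2 days and -0.07 at 4 weeks.

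**Figure D4:**
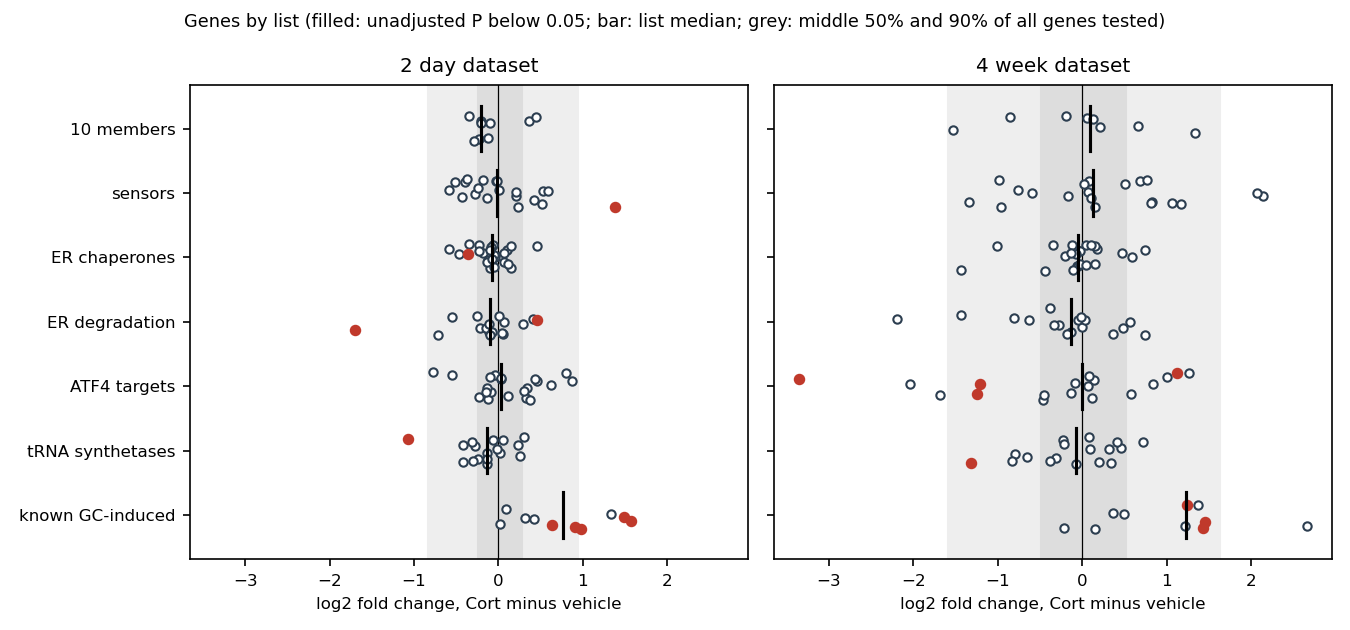
Log2 fold change (Cort minus vehicle) of each tested gene by list at 2 days (left) and 4 weeks (right), filled where the unadjusted P was below 0.05, with a bar at the list median and grey bands for the middle 50% and 90% of all genes tested. The medians of the 10 genes and of the 5 pathway lists lie within 0.21 of 0, and those of the known glucocorticoid-induced genes at 0.77 and 1.23.

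**Figure D5:**
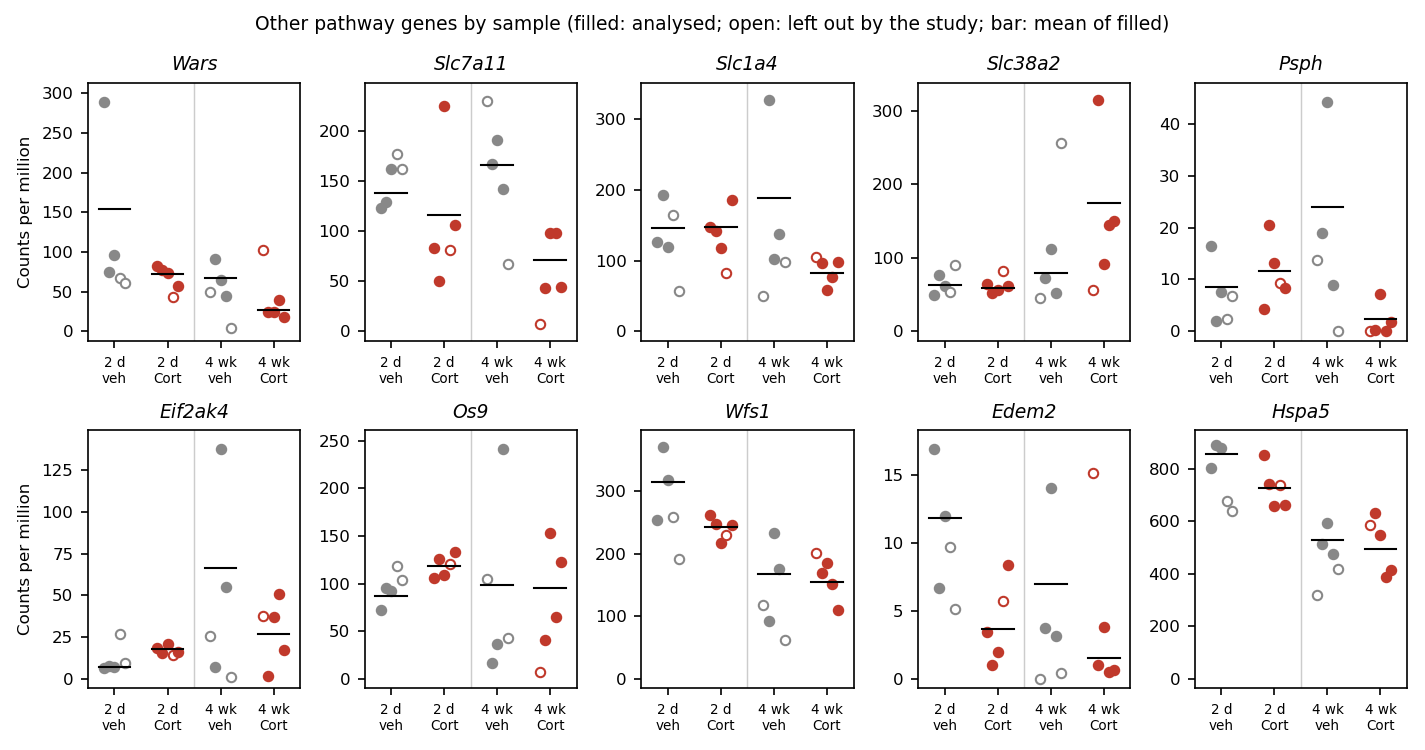
Level (CPM, linear axis) of the 9 pathway genes with an unadjusted P below 0.05 and of *Hspa5* in the 20 samples, with kept samples filled, samples left out by the study open, and a bar at the mean of the kept samples. The single high vehicle sample of *Wars* at 2 days and the left-out samples that reach into the other group at 4 weeks can be seen.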

How the data were processed

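ARC RNA was amplified (Ovation) and sequenced as single-end 50-base reads. Reads were aligned by Rsubread against GRCm38 and counted per gene by featureCounts, and the raw count of each gene in all 20 samples was deposited by the authors. The annotation release, the strand setting and the treatment of multimapping reads are not given in the sources used here. The signal values deposited by the authors are counts divided by DESeq2 size factors over the 7 samples kept per dataset. The log2 fold changes, the score (Wald statistic) and the p-values deposited by the authors hold the study's own comparisons and were not used. The deposited normalized tables served to pair gene symbols with IDs and to check their headers against the raw counts, and entered no comparison. Of the 7 headers of the 2 day normalized file, 5 stand over the values of a raw column with another name, and at 4 weeks all 7 match, so raw columns were used throughout.

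Columns carry no GEO replicate number. Their group was taken from the study's sample table, and the samples left out from the legend of its principal component plot. Counts were filtered with edgeR's filterByExpr, scaled by TMM and compared with edgeR's 2-sided quasi-likelihood test, with Benjamini-Hochberg adjustment (Padj) over all genes tested and the study's threshold of Padj below 0.1. An unadjusted P below 0.05 is descriptive. CPM was scaled over all 10 samples of a dataset, and log2 CPM carried a prior count of 2. Correlations used 100000 permutations. The 2 day libraries held 2487063 to 5748223 counts and the 4 week libraries 1065776 to 5196364, and since RNA was amplified floors cover counting error only. R 4.3.3, edgeR 4.0.16, limma 3.58.1, DESeq2 1.42.0, Python 3.11.15, pandas 2.3.3, numpy 2.4.6 and matplotlib 3.10.9 were used, and the fits were tested on simulated data.

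The 10 genes and all lists were chosen with earlier results of these data known. The named genes are the 10 and, from the pathway lists, those with P below 0.05 in a dataset, up to 20. *Hspa5*, *Ern1* and *Eif2ak3* were named, and the exact test of *Herpud1* without C08 added, after their values were seen. The alternatives were DESeq2, DESeq2 size factors in edgeR, no filter on low counts, all 10 samples by edgeR or by limma voom with quality weights per sample, a prior count of 0.5, and leaving out each sample in turn.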

Additional observations from a re-analysis of the deposited data

Results flagged for a closer look

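In groups of 5 samples, 3 of 37 values tested stood apart from the rest of their group by Dixon's criterion (critical value 0.71), which chance alone meets in about 1 of 20 groups. All were in the 2 day Cort group. *Herpud1* had 11.06 CPM in C08, where the nearest of the other 4 samples had 33.68 CPM, and C08 is 1 of the samples the study left out. *Xbp1* had 121.6 CPM in C06, where the nearest had 169.3 CPM. *Trib3* had 1.878 CPM in C01 and 0 in the other 4, where any value above 0 meets the criterion, so the chance rate does not apply to it.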

How the results depend on the processing

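No paired analysis was possible because the columns of the count tables carry no replicate numbers of the labels. In all alternatives run, 0 of the 10 genes passed Padj below 0.1 in either dataset or in the interaction. The number of other pathway genes with P below 0.05, 5 in each dataset, became 3 with all 10 samples in both and 8 with DESeq2 at 4 weeks, and ran from 3 to 7 at 2 days and 2 to 7 at 4 weeks with each sample left out. With no filter on low counts 1 of them, *Wars*, passed Padj below 0.1 at 2 days (Padj = 0.0799), where it rests on vehicle C02. Of the 10 genes, the number with P below 0.05 ran from 0 to 1 at 4 weeks (*Asns*, without C09) and from 0 to 1 in the interaction with each sample left out (*Asns* or *Atf6*), and was 1 in the interaction (*Asns*) with no filter and with limma voom. Over all genes, calls at Padj below 0.1 were 8 at 2 days and 5 at 4 weeks, and 52 and 67 with DESeq2, 24 and 9 with no filter, and 2 and 1 with all 10 samples. In the interaction they were 2, and 67 with DESeq2 and 0 with all 10 samples.

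Directions turned in the following fits, and the cause was not tested. With all 10 samples the log2 fold change was 0.037 for *Atf6* at 2 days, -0.28 for *Xbp1* and -0.013 for *Herpud1* at 4 weeks, and the interaction -0.30 for *Atf4* and -0.094 for *Xbp1*. With limma voom it was -0.027 for *Sesn2* at 2 days, -0.085 for *Xbp1* and -0.55 for *Herpud1* at 4 weeks, and the interaction -0.16 for *Atf4* and -0.028 for *Herpud1*. With each sample left out in turn, the 2 day change ran from -0.45 to 0.092 for *Atf4*, -0.32 to 0.0046 for *Xbp1*, -0.41 to 0.22 for *Ddit3*, -0.30 to 0.020 for *Asns* and -0.58 to 0.11 for *Ppp1r15a*. The 4 week change ran from -0.58 to 0.19 for *Atf4*, -0.16 to 0.50 for *Xbp1*, -0.52 to 1.05 for *Ddit3* and -0.54 to 0.49 for *Herpud1*. The interaction ran from -0.35 to 0.44 for *Atf4*, -0.42 to 1.16 for *Ddit3* and -0.26 to 0.78 for *Herpud1*. Over the 7 kept samples, r turned to 0.567 for *Atf6* with *Herpud1* at 2 days, and to 0.166 for *Atf4* with *Ddit3*, -0.067 for *Xbp1* with *Herpud1* and 0.384 for *Atf6* with *Herpud1* at 4 weeks. Low counts limit *Ddit3*, *Sesn2* and *Ppp1r15a* at 4 weeks and *Trib3* in both datasets, and they did not follow the library total alone, *Sesn2* being at 0 in C07, the 4 week library with the highest total (5196364 counts).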
